A study of Mus musculus with 16 samples.

Results

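Acinar cells of the human pancreas were described from 111 single-cell libraries, out of 1081 cells with a type annotation in the deposited control matrix. A cell was counted as acinar where its column name matched a well that the accompanying sample sheet annotates as an acinar cell. The annotation is the first study's own, and it was inferred from expression of the same cells. Gene levels that set acinar cells apart from other cells are therefore descriptions here and carry no test.

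The series itself concerns ivermectin, an antiparasitic drug, and the purinergic receptor gene P2ry1 in BetaTC6 cells, a mouse insulinoma line. Its 16 mouse libraries, wild type or P2ry1 knockout, with ivermectin or vehicle, are not used here. The submitters also processed single-cell libraries of dissociated human islets from an earlier study, and all 1081 cells of the control matrix came from 6 donors labelled normal. Islet preparations are made to remove exocrine tissue, so acinar numbers do not give the makeup of the pancreas.

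The 6 donors, numbered arbitrarily, gave 4, 19, 3, 80, 3 and 2 acinar cells. Acinar cells were 5.56% of the annotated cells of donor 1 (95% exact binomial interval 1.53 to 13.6%), 7.42% in donor 2 (4.53 to 11.3%) and 1.36% in donor 3 (0.282 to 3.93%). They were 34.2% in donor 4 (28.1 to 40.7%), 1.49% in donor 5 (0.309 to 4.3%) and 2.04% in donor 6 (0.248 to 7.18%). Donor 4 thus held most of the acinar cells, and its interval did not overlap that of any other donor. The intervals treat cells as independent draws and do not cover variation between islet preparations. Within-donor comparisons rest on donors 2 and 4, which had at least 5 acinar cells, and values of the other 4 donors are given as a spread.

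Totals per acinar cell ran from 40049 to 5083415 counts with a median of 662686. The other 970 cells, of 13 further annotations, had a median of 469502. No cell name was repeated in the matrix. Ribosomal RNA entries, nuclear and mitochondrial, took 15.8% of acinar and 9.83% of other counts when all donors are pooled. Within each donor their acinar share was below that of the other cells, in 6 of 6 donors, and donor 4, which holds most acinar cells, had 22.3 against 27.0%. The pool thus reverses the order seen within donors. Of these entries 3 carry identical counts in every cell. Levels are counts summed over the cells of a donor and scaled to counts per 1000000 (CPM). Transcript lengths were not at hand, so levels are compared between cells and donors and not between genes.

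Acinar cells make, store and release the digestive enzymes of the pancreas. Proteases are made as inactive zymogens on a large rough endoplasmic reticulum, packed into zymogen granules and released on cholecystokinin or acetylcholine, and ductal cells then add bicarbonate fluid and carry the juice away. The enzyme genes are driven by a complex of PTF1A and RBPJL, and acinar cells under stress are known to lower enzyme genes and raise duct and inflammatory genes.

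The label was set beside 4 markers, PRSS1, CPA1, CTRB1 and REG1A, which were high in the summed counts of each donor. The annotation was made from the same expression, so these levels describe the labelled cells and are no independent check. PRSS1, which encodes cationic trypsinogen, stood at 26647, 9440, 54600, 40848, 29289 and 15975 CPM in donors 1 to 6. CTRB1, a chymotrypsinogen gene, had 11672, 2648, 4768, 12573, 7281 and 1145 CPM. Levels of CPA1, which encodes a carboxypeptidase, were 3369, 1250, 2970, 1897, 1259 and 231 CPM. REG1A, which encodes a small secreted lectin, was at 108477, 70876, 43316, 65576, 67448 and 37992 CPM.

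PRSS1 and CTRB1 had a count in all 111 acinar cells, REG1A in 110 and CPA1 in 104. Alpha cells, which should lack PRSS1, had a PRSS1 count in 27.9% of 437 cells, with a median total of 462289 against 662686 counts in acinar cells. The highest donor level of PRSS1 in alpha cells was 161 CPM, and its lowest in acinar cells was 9440 CPM. In these donor sums no other annotated type reached the acinar range for PRSS1, CPA1, CTRB1 or REG1A in any donor. Single acinar cells went lower. In donor 2 the lowest PRSS1 levels were 44.6 and 173 CPM, and CPA1 had a count in 13 of 19 cells. In donor 3, 1 of 3 acinar cells had REG1A at 0, with 1468 CPM of PRSS1, 737 CPM of the duct gene CFTR and 1225 CPM of KRT19. The 4 markers together took 5.53 to 15.0% of acinar counts, while 6 ductal markers took 0.0264 to 0.314%. The 6 alpha markers took 0.00313 to 0.0259% and 6 beta markers 7.56e-04 to 0.00682%. All of these alpha and beta markers had at least 1 acinar count, and so had 3 of 5 mast cell markers and 4 of 5 MHC class II cell markers. The mast list took at most 5.04e-04% of acinar counts, with TPSAB1 and HDC at 0. The MHC class II list took 0.0252 to 0.270%, with C1QA at 0. Most of that was CD74, the invariant chain gene, at 218, 2349, 653, 315, 2548 and 624 CPM, which had a count in 88.3% of acinar cells. CD68 had a count in 59.5%. The part of other cell types in these values was not tested.

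**Figure D1:**
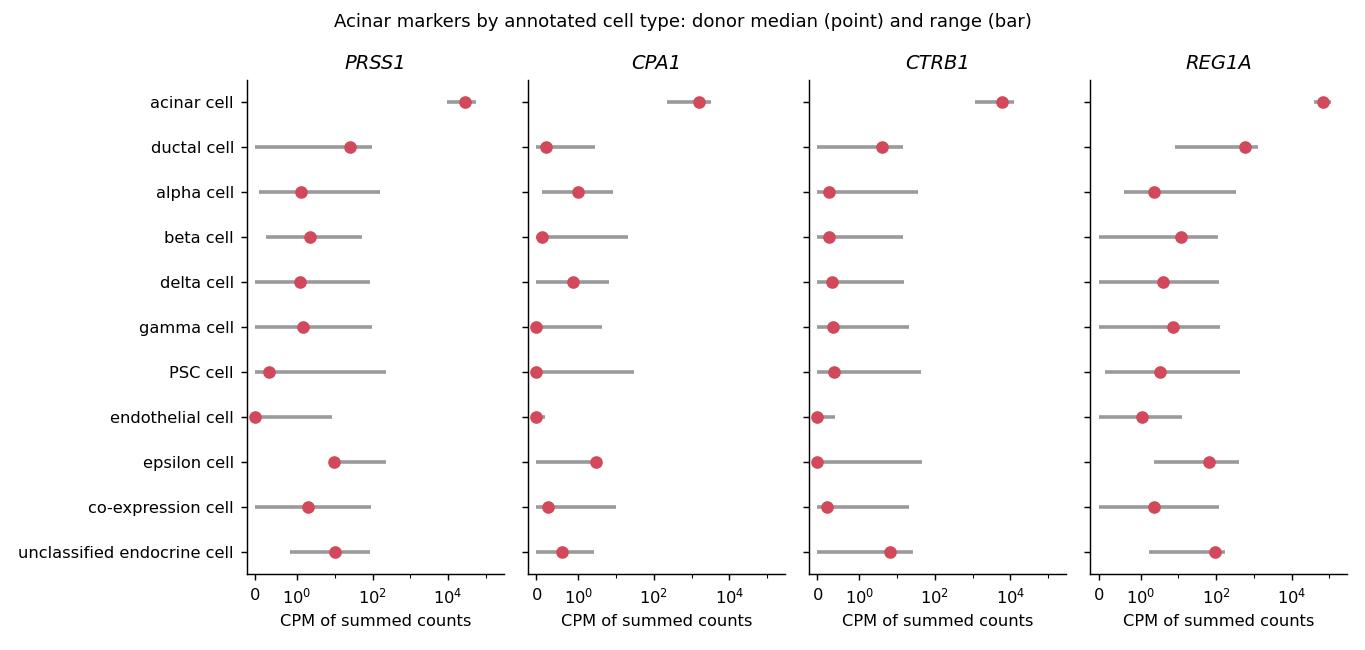
Levels of 4 acinar markers (x axis, CPM of summed counts, logarithmic above 1) in 11 annotated cell types (y axis). Points are medians over donors and bars run from the lowest to the highest donor. Acinar cells sit to the right of every other type, and REG1A in ductal cells, with a median of 582 CPM, lies closer to them than the other 3 markers do.

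The tested digestive proteases were all higher in acinar cells of donors 2 and 4. Of 16 listed genes 15 had an acinar count and passed the minimum level of 10 CPM, and all 15 were at least 4-fold higher in acinar cells than in all other cells of both donor 2 and donor 4. Over all 9520 genes tested, 152 were higher in this way, 1.60%. The cells were annotated from the same expression, so nothing is read from that contrast. The protease median was 8.60 on the scale log2(CPM + 1), against -0.34 for all genes tested, and most of these genes were near 0 outside acinar cells, so the size of the difference depends on the pseudocount.

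Among the trypsinogen genes, PRSS2 ran from 7283 to 40431 CPM over the 6 donors with a median of 24031. PRSS3 ran from 15.1 to 535 CPM. In donor 6, with 2 acinar cells, it was lower in acinar than in other cells, at 15.1 against 52.8 CPM. Counts of PRSS1, PRSS2, PRSS3 and the pseudogene PRSS3P1 may be exchanged, since these copies are nearly identical. The same holds for CTRB1 with CTRB2, for CELA3A with CELA3B, for CELA2A with CELA2B, for the amylase genes and for REG1A with REG1B.

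CTRB2, a second chymotrypsinogen gene, had 34005, 5565, 5967, 20092, 21355 and 4962 CPM in donors 1 to 6. Its log2 difference from all other cells was 11.64 in donor 2 and 9.28 in donor 4. On the scale log2(CPM + 1) this was the largest median difference among the genes higher in both donors. CTRC, which encodes a chymotrypsin that degrades trypsin, ran from 71.8 to 3838 CPM with a median of 2699. CTRL, a chymotrypsin-like gene, stood at 182 CPM in donor 1 and at 15.1 to 71.5 CPM in the others.

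The elastase genes differed in how evenly donors expressed them. CELA3A ran from 1426 to 8708 CPM and CELA3B from 126 to 3684 CPM. CELA2A was lowest in donors 1 and 2, at 196 CPM each, and highest in donor 4, at 1843 CPM. CELA1, a pancreatic elastase gene of rodents, had no count in 111 acinar cells, which allows up to 0.0297 CPM on a limit of 3 counts. Limits and intervals of this kind cover counting error only, because reads without molecular identifiers are not independent molecules.

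Carboxypeptidases trim peptides that the endoproteases leave. CPB1 had 4344, 802, 18116, 5274, 873 and 41.6 CPM in donors 1 to 6. Donor 3, with 3 acinar cells, was the high donor for CPB1 and donor 6, with 2 cells, the low one. KLK1, which encodes tissue kallikrein, ran from 11.3 to 144 CPM.

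The amylase and colipase genes were not shared evenly by the donors. Of 10 lipase, amylase and nuclease genes 9 were tested and 6 were higher in acinar cells in both donors, beside 1.60% of all genes tested, with a median of 6.19 against -0.34. As for the proteases, nothing is read from that contrast. PNLIP, which encodes the main triglyceride lipase, had 6341, 2061, 13476, 9303, 4375 and 809 CPM. PNLIPRP1 ran from 355 to 4593 CPM, PNLIPRP2 from 551 to 2718 CPM and the phospholipase gene PLA2G1B from 86.9 to 1081 CPM. RNASE1, the secreted ribonuclease, ran from 423 to 3188 CPM and was the only one of these genes with a ductal level above 100 CPM in donor 2, at 179 CPM.

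CLPS encodes colipase, the cofactor that lets pancreatic lipase work in the presence of bile salts. Its acinar level was 120.4, 3.06, 469.8, 22219, 98.9 and 0 CPM in donors 1 to 6. Donor 4 stood apart from donor 2 by 12.42 on the scale log2(CPM + 1), the largest such difference among genes with a mean of at least 50 CPM in acinar cells. The order depends on the pseudocount, since the ratio of the plain CPM values is larger for AMY2A. CLPS had a count in 78 of the 80 acinar cells of donor 4 and in 2 of the 19 of donor 2. In donor 6 it had no count in 2 cells and 264606 counts, which allows up to 11.3 CPM.

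AMY2A, which encodes pancreatic amylase, was also highest in donor 4. It stood at 58.7, 0.0729, 90.5, 1751, 3.37 and 0 CPM in donors 1 to 6. AMY2B was at 301 CPM in donor 4 and at 0 to 70.4 CPM elsewhere, and AMY1A at 15.4 CPM in donor 4 and at most 0.0365 CPM elsewhere. CEL, which encodes a bile salt-dependent lipase, had 96.1, 2.15, 152, 898, 612 and 11.3 CPM. AMY2A, AMY2B and CEL were 4-fold or more higher than in other cells in donor 4 but not in donor 2. In donor 2 AMY2B was lower in acinar than in other cells, at 0.583 against 14.1 CPM. CLPS passed in donor 2 by a narrow margin, with a log2 difference of 2.02 from a level of 3.06 CPM.

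PRSS3P1, the trypsinogen pseudogene, also differed, with 775 CPM in donor 4 and 2.44 in donor 2, and ran from 15.1 to 781 CPM in the other donors.

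**Figure D2:**
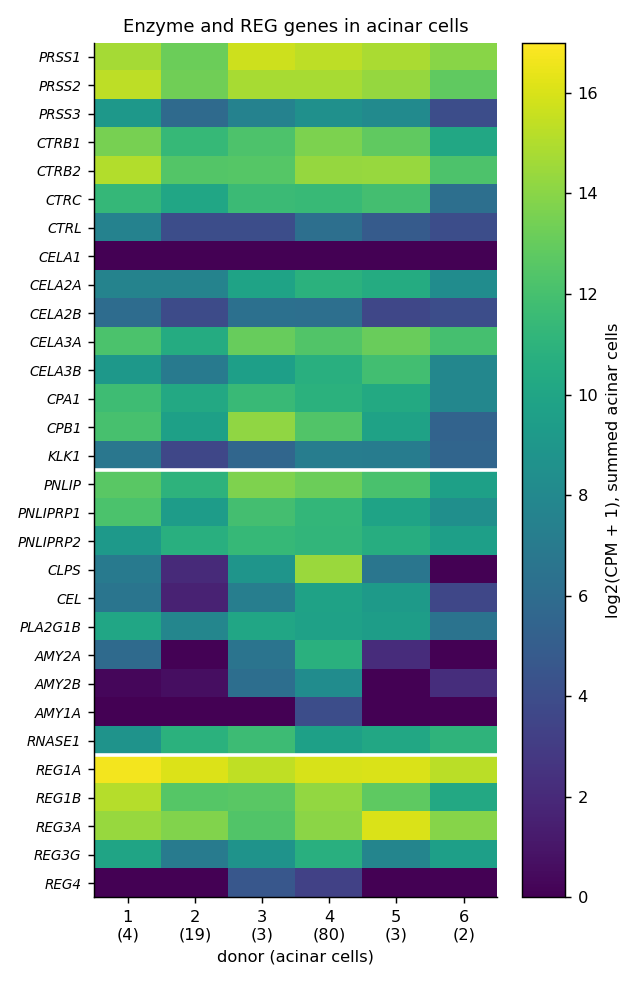
Heat map of 30 enzyme and REG genes (rows) in acinar cells of 6 donors (columns, number of acinar cells in brackets), coloured by log2(CPM + 1) of the summed counts. PRSS1, PRSS2, CTRB2 and REG1A are high in every column, while CLPS, AMY2A and AMY2B are bright mainly in donor 4.

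All enzymes without the REG family took 14.8, 4.15, 16.1, 16.7, 11.1 and 3.95% of acinar counts in donors 1 to 6. Donors 2 and 6 were the low pair. Other cells had 0.00495 to 0.0348% of their counts in enzymes. With the REG family added the acinar share was 31.4, 13.3, 21.7, 27.1, 25.2 and 9.45%.

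The REG family encodes secreted C-type lectins known from pancreatic stone protein and from antibacterial defence in the gut. Of 5 members 4 were tested and all 4 were higher in both donors, beside 1.60% of all genes tested. REG3A had 21757, 14289, 5294, 17255, 66651 and 15079 CPM, with donor 5 above the rest. REG1B ran from 1243 to 34786 CPM and REG3G from 134 to 1702 CPM. REG4 was at 0 in 3 donors and reached 23.8 CPM in donor 3. The family took 16.6, 9.11, 5.54, 10.4, 14.2 and 5.51% of acinar counts in donors 1 to 6. Donor 2 thus lay close to donor 4 in its REG share, at 9.11 against 10.4%, though not in its enzyme share, and donor 6 was low in both.

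Trypsin that activates inside the gland is held by inhibitors. SPINK1, which encodes the pancreatic secretory trypsin inhibitor, had 14806, 15310, 9526, 7910, 14105 and 7014 CPM. It varied less between cells than the enzymes did, with a within-donor SD of 0.67 on the log2 scale against 1.92 for PRSS1. SERPINI2, another acinar serpin gene, was higher in both donors and ran from 0 to 134 CPM. SERPINA3, which encodes alpha-1-antichymotrypsin, ran from 1162 to 8152 CPM and was not called in either comparison. SERPINA1, which encodes alpha-1-antitrypsin, was lower in acinar than in ductal cells in both donors, at 375 against 4405 CPM in donor 2 and 3.58 against 425 CPM in donor 4.

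Of 7 tested acinar transcription factor genes 2, GATA4 and MECOM, were higher than in all other cells and than in ductal cells in both donors, beside 1.60 and 1.55% of all genes tested. GATA4 ran from 8.23 to 76.4 CPM. MECOM, a zinc finger factor, ran from 41.6 to 207 CPM and was at 0 CPM in ductal cells of donor 2 and at 0.104 CPM in those of donor 4.

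PTF1A stood at 12.7, 0.766, 22.4, 23.3, 22.5 and 0 CPM, and its partner RBPJL at 4.2, 0, 42.5, 48.7, 0 and 0 CPM. Both genes were near 0 in donor 2 and present in donors 3 and 4. RBPJL was highest in donor 4, then in donors 3 and 1, as were CLPS and AMY2A. CLPS and AMY2A, unlike RBPJL, were far lower in donor 3 than in donor 4. PTF1A departed from that order in donor 5, with 22.5 CPM beside 3.37 CPM of AMY2A. The relation of these genes over donors was not tested. In donor 2, RBPJL had no count in 19 cells, which allows up to 0.109 CPM. XBP1, which drives the secretory apparatus, ran from 309.9 to 663 CPM and was above its ductal level in 6 of 6 donors. Its levels in donor 1 were 663 CPM in acinar and 153 CPM in ductal cells. In donors 2 and 4 the log2 differences were 1.60 and 1.76, short of 4-fold. NR5A2, a nuclear receptor that works with PTF1A, had 143 CPM in acinar and 82.5 CPM in ductal cells of donor 2, and 63.6 against 72.7 CPM in donor 4. BHLHA15, which encodes MIST1, had counts in 40 of 111 cells, 39 of them from donor 4.

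The granule genes did not all go one way. GP2, the main glycoprotein of the zymogen granule membrane, had 371, 95.2, 3023, 1485, 275 and 185 CPM. SYCN, which encodes syncollin, ran from 38.1 to 191 CPM. Both were higher than in all other cells and than in ductal cells, and RAB3D and TMED6 passed against ductal cells as well. VAMP2, which encodes a vesicle fusion protein of neurons and endocrine cells, was lower than in all other cells in both donors, with log2 differences of -2.49 in donor 2 and -2.06 in donor 4. Its acinar levels there were 23.9 and 23.2 CPM.

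None of 4 tested receptor and signalling genes (CCKBR, SCTR, ITPR2 and ITPR3) passed in either comparison, a count near the background for so short a list. CHRM3, a muscarinic receptor gene, did not reach the minimum level in the mean of donors 2 and 4. It ran from 0 to 24.7 CPM and had a count in 59 of 80 acinar cells of donor 4 and in 6 of 19 of donor 2. Of the ductal cells of all donors 6.67% had one. CCKBR ran from 0 to 25.8 CPM. CCKAR and CHRM1 had no count in acinar cells, which allows up to 0.0297 CPM. SCTR, the secretin receptor gene, was at 28.7 and 10.7 CPM in acinar and at 83.4 and 170.3 CPM in ductal cells of donors 2 and 4.

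Protein folding genes serve every secretory cell, and endocrine cells express them too. All 34 were tested, and 2 were higher than in all other cells, beside 1.60% of all genes tested. PDIA2, a pancreas-enriched protein disulfide isomerase gene, ran from 0 to 227 CPM and was at most 0.723 CPM in the other cells of donors 2 and 4. ERP27 ran from 75.6 to 904 CPM. The median of the list was 0.51, against -0.34 for all genes tested. P4HB and PDIA4 showed log2 differences of 1.23 and 2.12 in donor 2 and of 1.43 and 1.75 in donor 4. Other members went the other way, among them ERO1B at -3.71 and -0.76, SEC11C at -1.63 and -0.35 and ERP29 at -0.87 and -0.66.

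Of 13 tested genes of amino acid and creatine metabolism 4 were higher than in all other cells, beside 1.60% of all genes tested. BCAT1, a branched-chain aminotransferase gene, ran from 105 to 405 CPM in acinar cells and was at 0.0720 and 1.33 CPM in ductal cells of donors 2 and 4. GATM, which encodes the first enzyme of creatine synthesis, ran from 215 to 1052 CPM. CBS ran from 16.5 to 247 CPM and PSAT1, an enzyme gene of serine synthesis, from 37.8 to 190.1 CPM. SLC3A1, a cystine transporter subunit gene, was the reverse: at most 4.50 CPM in acinar cells of any donor, and 631 and 792 CPM in ductal cells of donors 2 and 4.

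In the comparison with all other cells 610 genes were lower, 6.41% of those tested. All 7 islet hormone genes, counting IAPP and TTR, were among them. INS had 62.7 and 51.3 CPM in acinar cells of donors 2 and 4 and 41348 and 44086 CPM in the other cells. GCG had 114 and 14 against 88902 and 9607 CPM. TTR, which encodes transthyretin, had 38.8 and 14 against 29988 and 11155 CPM. INS had a count in 95.5% of acinar and 96.3% of ductal cells, and its log2 difference between these types was 0.12 in donor 2 and -0.41 in donor 4.

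Ductal cells are the closest epithelial type, and 143 of 9243 tested genes were at least 4-fold higher in acinar cells in both donors, 1.55%, while 327 were lower, 3.54%. Higher genes were thus 30.4% of the calls, and the share depends on scaling. It was 44.1% with TMM factors and 40.9% with the enzyme, REG and hormone genes left out of the totals, which moved the median of all genes by 0.40 and 0.31. Against all other cells the same scalings moved it by 0.25 and 0.11. Of the genes higher than in ductal cells 106 were also higher than in all other cells, 74.1% of the first and 69.7% of the second list. Ductal cells are part of both comparisons.

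Genes higher than in ductal cells were led by REG3A, CTRB2, CTRB1 and REG1B. All 15 tested proteases, 6 of 9 lipase and amylase genes and 4 REG genes were among them, beside 1.55% of all genes tested. The cells were annotated from the same expression, so nothing is read from that contrast either. SLC7A2, which encodes a cationic amino acid transporter, separated acinar from ductal cells but not from the rest. It was at 76.6 and 60.2 CPM in acinar, 4.82 and 2.49 CPM in ductal and 166 and 54.4 CPM in all other cells of donors 2 and 4.

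Among the 10 lowest genes against ductal cells, FXYD2, a regulator of the sodium pump, was at 0.766 and 3.34 CPM in acinar and 2473 and 2084 CPM in ductal cells of donors 2 and 4. AQP1, a water channel gene, was at 1.5 CPM in acinar cells of both donors and at 380.2 and 852 CPM in ductal cells. ALDH1A3, a retinaldehyde dehydrogenase gene, was at 0.109 and 0.789 against 339 and 489 CPM. HSD17B2, SERPINA6, VCAM1, IGFBP7 and VTCN1 were lower in the same way, and IGFBP7 ran from 0.105 to 183 CPM in acinar cells.

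Duct-associated genes were not uniformly low. Of 16 tested genes 4 were lower than in ductal cells in both donors, namely CFTR, MMP7, SLC4A4 and SPP1, beside 3.54% of all genes tested, and none was higher. CFTR, the chloride and bicarbonate channel gene, stood at 0, 94.8, 302, 0.707, 257 and 163 CPM in acinar cells. SPP1, which encodes osteopontin, had 0, 554, 63.5, 2.14, 1.12 and 261 CPM. The keratin gene KRT19 stood at 15.3, 591, 621, 54.9, 75.3 and 1481 CPM. Donors 1 and 4 were the lowest in CFTR and KRT19, and donors 2 and 6 held the highest KRT8 levels, 3550 and 4456 CPM, against 219.8 to 1364 CPM in the others.

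**Figure D3:**
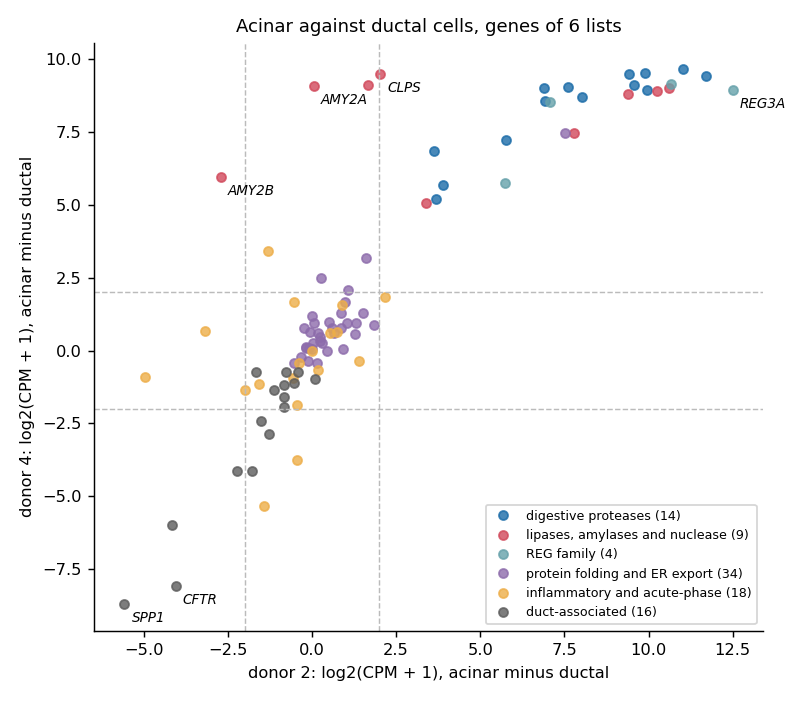
Difference between acinar and ductal cells on the scale log2(CPM + 1) in donor 2 (x axis) and donor 4 (y axis) for tested genes of 6 lists; dashed lines mark 4-fold. The plot leaves out 1 of the 15 tested proteases, and the 14 shown lie at the upper right in both donors, AMY2A, AMY2B and CEL pass upwards only in donor 4, and CFTR and SPP1 lie at the lower left.

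No inflammatory or acute-phase gene passed against ductal cells among 18 tested, a count near the background of 1.55% higher and 3.54% lower. Against all other cells 3 of 16 were higher, IL32, CFB and CXCL2, beside 1.60% of all genes tested. These 3 genes and LCN2 had acinar counts in every donor. CXCL1 and CXCL8 had no count in donors 3 and 5, whose 3 cells each allow up to 1.37 and 3.37 CPM, and CXCL8 was at 1.18 CPM in donor 4, so a difference from donor 4 was not detectable for CXCL8. CXCL5 had a count in 1 of 111 cells. IL32, a cytokine gene, had 2314, 3258, 815, 1555, 2481 and 1436 CPM. CFB, complement factor B, had 4369, 6691, 1269, 683, 2760 and 899 CPM. LCN2, which encodes an iron-scavenging lipocalin, had 1110, 3542, 345, 2270, 10314 and 10227 CPM and was in all 111 cells. Alpha cells had an LCN2 count in 25.4% of cells and ductal cells in 97.0%.

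Several genes of this list were far apart between donors 2 and 4. CCL20, a chemokine gene, was at 959 CPM in donor 2 and 0.690 CPM in donor 4. CXCL8 was at 379 and 1.18 CPM and CCL2 at 1602 and 32.1 CPM. Outside the list, CRP, which encodes the acute-phase C-reactive protein, was at 555 and 0.0657 CPM, and TGFBI, a matrix protein gene, at 335 and 0.477 CPM. CCL20 and CRP had a count in 7 of 19 cells of donor 2 each and TGFBI in 4, while CCL2 had one in 17 and CXCL8 in 11. The highest cell held 8943 CPM of CCL20. Ductal cells of donors 2 and 4 had CCL20 at 954 and 0.701 CPM and CRP at 2403 and 38.7 CPM. The list as a whole took 1.22, 2.20, 0.311, 0.515, 1.69 and 1.73% of acinar counts in donors 1 to 6.

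Single acinar cells covered a wide range of enzyme output. In donor 4 the enzyme share of a cell ran from 0.947 to 56.7% of its counts with a median of 12%. In donor 2 it ran from 0.809 to 15.3% with a median of 2.21%. The ranges overlapped, and the enzyme share in donor 4 had a rank correlation of 0.14 with the total count over 80 cells.

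The genes that varied most between cells of a donor were CLPS, AMY2A, CELA3A, MT1H, CYP1A1, DUOX2, GP2, CELA3B, OLFM4 and ADH1C. This ranking is among genes with a mean of at least 50 CPM in acinar cells. CLPS ran from 0 to 184054 CPM in donor 4, with a median of 762 CPM. Of its 80 cells 28 had 10000 CPM or more and 7 had less than 10. CELA3A ran from 0 to 16348 CPM, and 50 of the 80 cells had 1000 CPM or more. Within donor 4 the log levels of CLPS had Pearson correlations of 0.84 with CELA3B, 0.83 with CEL, 0.78 with AMY2A and 0.78 with RBPJL. The correlations were 0.38 with PTF1A, 0.49 with PNLIP and 0.54 with PNLIPRP1. They were 0.30 with REG1A, -0.20 with REG3A, -0.71 with LCN2 and 0.02 with the total count. All are over 80 cells of 1 donor and are given as a description.

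**Figure D4:**
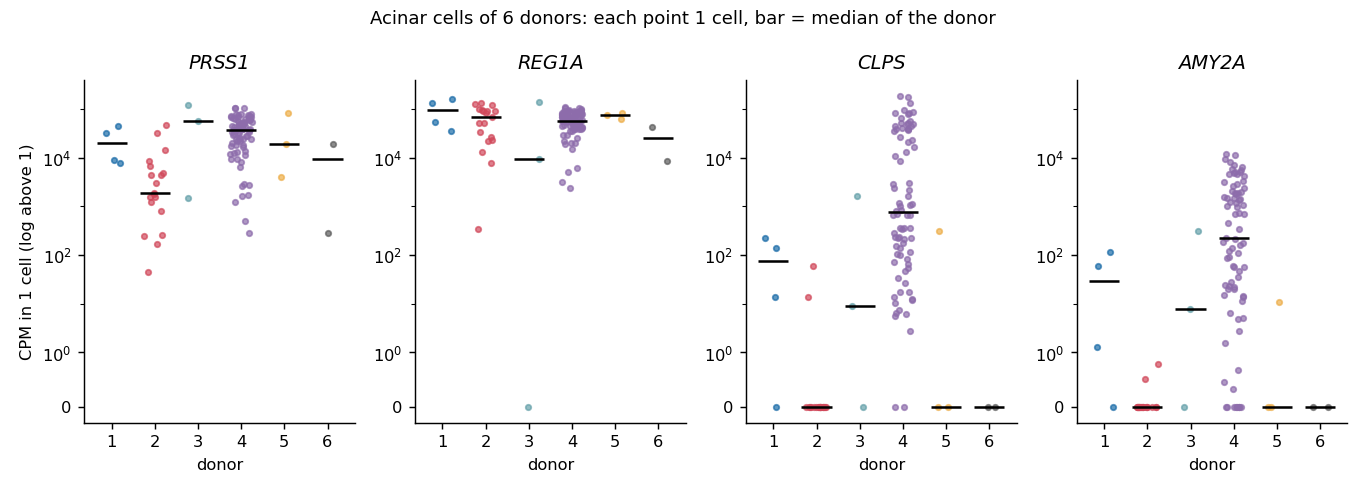
Level of PRSS1, REG1A, CLPS and AMY2A in each of 111 acinar cells (y axis, CPM, logarithmic above 1) by donor (x axis); each point is 1 cell and the bar is the median of the donor. REG1A is at a like level in donors 2 and 4, while CLPS is spread from 0 to 184054 CPM in donor 4 and is 0 in 17 of 19 cells of donor 2.

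The other variable genes, taken as CPM of all counts, differed in their relation to the enzyme level across cells. MT1H, a metallothionein gene, correlated with the enzyme level at 0.47 in donor 2 and 0.54 in donor 4. DUOX2, an oxidase gene that makes hydrogen peroxide at mucosal surfaces, correlated at -0.23 and -0.68 and ADH1C, an alcohol dehydrogenase gene, at -0.25 and -0.66. CYP1A1, the target gene of the aryl hydrocarbon receptor, correlated at 0.02 and -0.47. OLFM4, a secreted glycoprotein gene of intestinal crypts, correlated at -0.52 and -0.15, the more negative value being in donor 2. It was at 1000 CPM or more in 17 of 19 cells of donor 2 and 7 of 80 of donor 4. DUOX2 was at 0 in 42 of 80 cells of donor 4 and in none of the 19 of donor 2.

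Across cells, enzyme and duct-associated levels were negatively correlated in donor 4, and near 0 in donor 2. The duct list, scaled to the counts outside the enzyme, REG and hormone lists, had a Pearson correlation of -0.51 with the enzymes over 80 cells of donor 4 and of 0.02 over 19 cells of donor 2. For the inflammatory list the values were -0.53 and -0.13. Of 15 inflammatory genes 14 had a negative correlation over both donors together, and of 16 duct genes 14. In donor 2 alone 13 inflammatory and 8 duct genes were negative, and in donor 4 alone 13 and 14. Of all 7320 genes outside the enzyme, REG and hormone lists 72.2% were negative, so negative signs were common. That share is for both donors together and was not taken for each donor alone. In donor 4 the correlation was -0.67 for LCN2, -0.68 for ANXA4 and -0.48 for KRT19, and IL32 at 0.31 had the other sign. All are descriptions over cells that share a donor.

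The protein folding list had a correlation of 0.69 with the enzyme level in donor 4 and of 0.25 in donor 2. Over both donors together 2 of 34 genes had a negative correlation, beside 72.2% of all genes outside the enzyme, REG and hormone lists. In donor 2 alone 10 of 34 had one, among them SEC61A1 at -0.63 and SPCS1 at -0.52. No share over all genes was taken for donor 2 alone. Of the list genes positive in both donors, PDIA2 had 0.55 in donor 2 and 0.66 in donor 4, SSR4 0.65 and 0.64, and SEC61B 0.63 and 0.55. SERPINI2 had 0.42 and 0.79 and SPINK1 0.65 and 0.64. The REG family had 0.32 and 0.21.

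**Figure D5:**
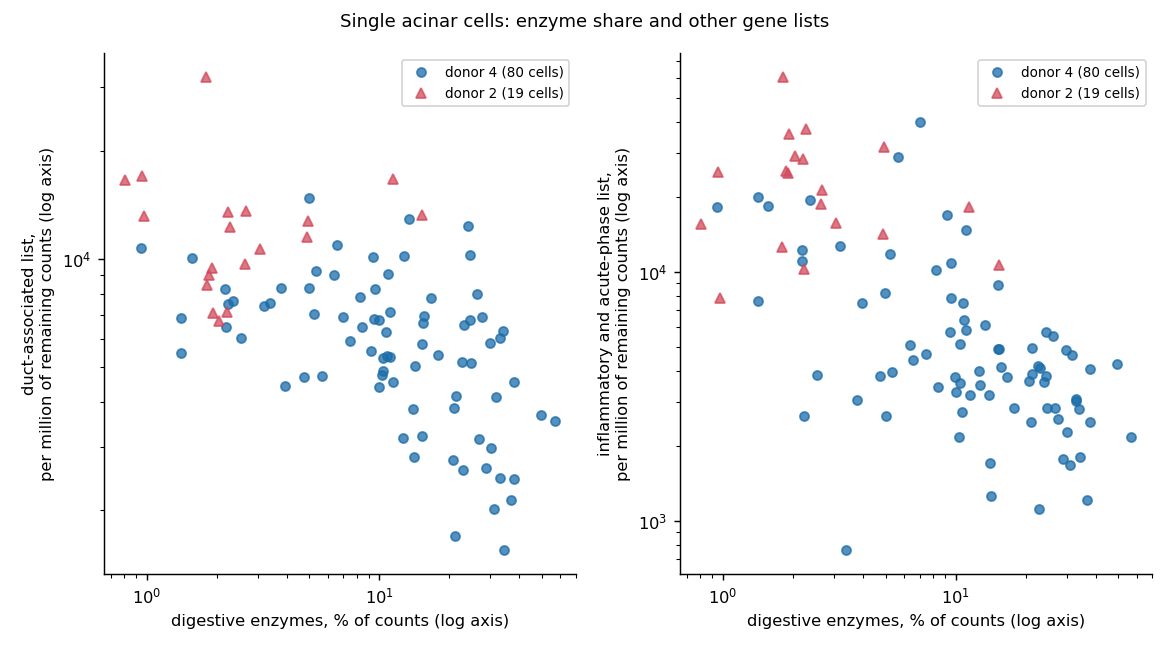
Share of counts from digestive enzymes (x axis, percent, log axis) against the duct-associated list (left) and the inflammatory and acute-phase list (right), both as CPM of the remaining counts on a log axis, for single acinar cells of donors 2 and 4. In donor 4 both lists are lower in cells with more enzyme, with Pearson correlations of -0.51 and -0.53, and most cells of donor 2 lie at the left.

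Enzyme transcripts were also read in cells of other types. Donor 4 had the highest level of the summed enzyme list in alpha and beta cells but not in ductal cells. In alpha cells the enzyme list stood at 566 CPM in donor 4 and at 42.3 to 118 CPM in the other 5 donors. In beta cells it was at 226 CPM in donor 4 and at 6.78 to 72.9 CPM elsewhere. Ductal cells had 548 CPM in donor 1, 415 in donor 3, 339 in donor 4, 311 in donor 2 and less in donors 5 and 6. Most of the donor 1 value was PRSS3, at 395 CPM over 4 ductal cells. Most of the donor 3 value was RNASE1, at 315 CPM with a count in 7.14% of 14 ductal cells. In ductal cells PRSS1 and CLPS were highest in donor 4, at 97.8 and 30.1 CPM. CTRB2 was highest in donor 1, at 39.0 against 28.1 CPM in donor 4. PRSS1 had a count in all 26 alpha cells of donor 4, at 161 CPM, and in 35.4% of 113 of donor 2, at 2.78 CPM. Median totals were 218954 counts in the first and 1225386 in the second, so the shallower cells had the higher share. CLPS was at 41.8 CPM in alpha cells of donor 4 and at 0 to 0.620 CPM in the other donors, and donor 4 was also the highest in acinar cells. Donor 4 also had 80 acinar cells against 2 to 19 elsewhere. Whether RNA from acinar cells reached these wells was not tested.

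REG1A in ductal cells stood at 1320 CPM in donor 2 and 1212 CPM in donor 4, or 37.3 and 12.4 times the PRSS1 count of the same cells. Over the donors with PRSS1 counts this ratio ran from 0.152 in donor 1 to 94.8 in donor 3 in ductal cells. In acinar cells it ran from 0.793 in donor 3 to 7.51 in donor 2, and donor 1 had 4.07. SPINK1 was also read beyond acinar cells, with a median over 6 donors of 87.5 CPM in 74 gamma cells. The 5 epsilon cells of the matrix came from 3 donors and ran from 586 to 9758 CPM between them.

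Of the purinergic receptors, the gene family that the mouse experiment is about, P2RX4 was the one that passed the minimum level in acinar cells. It encodes an ion channel opened by ATP, which ivermectin is known to modulate, and had 103, 192, 90.0, 45.9, 60.7 and 128 CPM. Ductal cells of donors 2 and 4 had 133 and 91.1 CPM. P2RY1 had a count in 1 of 111 acinar cells and a highest donor level of 0.0164 CPM. In beta cells it ran from 9.42 to 41.5 CPM with a count in 39.0% of 164 cells, and 16.3% of ductal and 1.37% of alpha cells had a count. P2RX1 was at 13.3 CPM in donor 4, where 34 of 80 acinar cells had a count, against 0 of 19 in donor 2 and 1 acinar cell in the other 4 donors together. No ductal cell had a P2RX1 count. Of the 17 listed receptors P2RX4 alone was tested, and it was not called in either comparison.

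Of the circadian clock genes none of 16 tested passed against other cells and none of 11 against ductal cells. Of all genes tested 1.60% were higher and 6.41% lower than in other cells, and 1.55 and 3.54% against ductal cells, so counts of 0 in lists of this size lie near the background. The median log2 difference of the clock list was -1.02 against other cells, beside -0.34 for all genes tested. Against ductal cells it was -0.37, beside -0.47. BHLHE40 ran from 3.66 to 181 CPM, and ARNTL, the BMAL1 gene, ran from 0 to 82.3 CPM. Of 15 immediate-early and heat shock genes, known to rise on cell dissociation, none passed either, which is near the same background. FOS was at 70.1 and 295 CPM in acinar cells of donors 2 and 4 and at 69.4 and 118 CPM in their ductal cells.

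Measures of the libraries were compared over donors. They come from the same counts as the annotation, so their p-values are not independent of it. Between donors 2 and 4 alone no exact sign-flip permutation test can go below p = 0.5. Over all 6 donors, a choice made after seeing the data, acinar cells had more genes with a count than other cells in 6 of 6 donors. The difference of donor medians was 1206 ± 949 genes (SD, n = 6, two-sided exact permutation p = 0.0312, Benjamini-Hochberg 0.0625 over 6 measures). At a common depth of 100000 counts it was 593 ± 777 genes (n = 6, exact permutation p = 0.156), and donors 4 and 5 went the other way.

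The share from mitochondrial protein genes, as a median over cells, was lower in acinar cells in 6 of 6 donors, with donor means of 4.65% against 7.57% in other cells and 9.03% in ductal cells. In summed counts donor 5, with 3 acinar cells, went the other way, at 7.15% in acinar, 6.77% in other and 6.16% in ductal cells. The differences were -2.92 ± 1.48 (SD, n = 6, exact permutation p = 0.0312, adjusted 0.0625) and -4.38 ± 4.34 points (n = 6, exact permutation p = 0.0312, adjusted 0.0938). Neither passed adjustment at 0.05, and 0.0312 is the smallest p that 6 donors allow. The 10 highest genes of a cell took 29.1% of acinar, 23.3% of ductal and 35.5% of other counts on average. Enzyme, REG and hormone genes can be among these, so this share is a description, and it was higher in acinar than in ductal cells in 5 of 6 donors.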

How the data were processed

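The matrix held 57980 genes and 1081 single-cell libraries, deposited as whole-number expected counts per gene. Per the series' design text the authors ran RSEM 1.3.3 on each cell with human genome GRCh38.p12, and all 1081 cells come from wells that the first study marked as of good quality. The aligner, gene annotation and how counts were made whole are not given in the sources used here. Cell type and donor came from the sample sheet, which the first study made, and it lists 3514 wells and 185 acinar wells, 112 of them from normal donors, of which 111 are in the matrix. A file named for diabetic donors held the same bytes and was not used. Cells were summed per donor, since donors are the replicates, and scaled to CPM. A gene was compared at 10 CPM or more in the mean of either side, with a pseudocount of 1, and called at 4-fold in every donor with 5 or more cells of both. Library measures used two-sided exact sign-flip permutation tests over donors. Depth is given with the results. 95% intervals are exact binomial.

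Sex-linked genes, HLA genes and genes of common deletions were left out, 105 in all. No doublet caller was run, and cell types are those of the first study. Named genes are the marker and list members, the 10 largest differences in each direction, and the 10 most variable within or between donors. The members and lists were chosen with earlier results of these data known. The mitochondrial list was renamed after seeing the data, since the genes carry no MT prefix. The calling step was tested on simulated counts. Alternatives were TMM factors (edgeR 4.0.16, R 4.3.3), other totals, pseudocounts of 0.1 and 5, filters, other folds, equal weight per cell or type, other cell minimums and leaving out each donor. The rest used Python 3.11.15, numpy 2.4.6, pandas 2.3.3 and scipy 1.17.1. Some items are not reported here.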

Additional observations from a re-analysis of the deposited data

Results flagged for a closer look

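Among 61 donor profiles of acinar cells, 11 had 1 donor set apart from the other 5 by more than Dixon's limit of 0.625 of the whole range. Chance passes this limit in about 1 in 20 sets of independent, normally distributed values; its rate was not measured for skewed and related profiles such as these. Donor 4, with 80 of the 111 cells, was the donor set apart in 6 of them. CLPS was at 22219 CPM there against 0 to 469.8 CPM, AMY2A at 1751 against 0 to 90.5, AMY2B at 301 against 0 to 70.4 and AMY1A at 15.4 against 0 to 0.0365. Ribosomal RNA entries took 22.3% of its acinar counts against 1.23 to 7.94%, and acinar cells were 34.2% of its annotated cells against 1.36 to 7.42%.

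Donor 3, with 3 acinar cells, was set apart in CPB1 at 18116 CPM against 41.6 to 5274, in MECOM at 207 against 41.6 to 102 and in REG4 at 23.8 against 0 to 8.68. Donor 5, also with 3 cells, was set apart in REG3A at 66651 CPM against 5294 to 21757. Donor 1, with 4 cells, was set apart in CTRL at 182 CPM against 15.1 to 71.5. Whether few cells gave the last 5 was not tested.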

How the results depend on the processing

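Against all other cells the counts of 152 higher and 610 lower genes became 86 and 262 with a pseudocount of 5, 359 and 1346 at 2-fold, and 69 and 281 at 10-fold. Higher genes became 74 over 5 donors with 3 or more cells, 58 over all 6 donors and 238 with types weighted equally. Leaving out donor 2 or 4 gave 223 to 610 higher and 807 to 1142 lower genes. Against ductal cells 143 higher and 327 lower became 80 and 154 with a pseudocount of 5, 68 and 103 with 3 or more cells, 293 and 1178 at 2-fold, 76 and 110 at 10-fold, and 48 and 83 over all 6 donors. Leaving out donor 2 or 4 gave 239 to 528 higher and 655 to 948 lower genes. A looser or stricter fold, or fewer or more donors, moves such counts by construction; for the pseudocount and the weighting the cause was not tested. Of the 152 higher genes 58 were also 4-fold higher in all 6 donors, and of the 610 lower genes 410.

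No tracked gene changed sign: for 27 genes, 394 of 432 values against all other cells and 367 of 405 against ductal cells stayed within the spread of the donors. Over all 6 donors the difference from other cells was 1206 genes with a count, -2.92 points for mitochondrial and -1.84 points for ribosomal shares, and from ductal cells -4.38 and -1.86 points, each with an exact permutation p of 0.0312 that adjustment left above 0.05. Differences in total counts against ductal cells turned from 110756 to -8699 without donor 4 and were 230212 without donor 2. Genes at 100000 counts turned from 567 to -234 against other cells without donor 2 (1369 without donor 4), and from 165 to -594 against ductal cells without donor 2 (925 without donor 4) and to -49.7 over all 6 donors. The share of the 10 highest genes against other cells turned from -4.53 to 2.94 points without donor 2 and was -12.0 without donor 4. The correlation of enzymes with the duct list went from -0.44 to 0.02 without donor 4, and that with the inflammatory list from -0.48 to -0.13. Without each donor in turn the ranges were -0.51 to 0.02 and -0.53 to -0.13.

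By replicate number no paired analysis was possible because the labels number replicates only in the mouse libraries, which are not used here. Donors served as the pairing instead, in all comparisons of acinar with other cells. The planned comparison of disease labels was not run, since every cell came from a donor labelled normal. Limits are few donors, 2 to 4 acinar cells in 4 of them, and 10 acinar cells under 100000 counts.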
